A study of Mus musculus with 18 samples.

Results

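The chitinase-like proteins of the mouse (Chil1, Chil3, Chil4 and Chil5) were followed across 18 RNA-seq libraries of eosinophils that had been cultured with apoptotic cells (ACs). The 4 genes were found by their Ensembl identifiers among the 54446 genes of the table, and all 4 were present. Eosinophils came from the peritoneal cavity of NJ.1638 Il5Tg mice, whose transgenic IL-5 expands eosinophils, on a strain labelled C57BL/6. Depletion of Thy1.2+ and B220+ cells left eosinophils, which were cultured for 18 hours with 5 dexamethasone-treated wild type thymocytes per eosinophil and pulled out afterwards on beads against Siglec-F. In a Type 1 experiment they received ACs with no further stimulus, or ACs with E. coli, with IFN-γ, or with IFN-γ and then E. coli (the study's text gives this order and no interval), and in an IL-4 experiment ACs alone or ACs with IL-4. Each of these 6 groups had 3 libraries, which the study describes as biological replicates. Every library therefore carried ACs and the Il5 transgene, and eosinophils without ACs were not analysed here.

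Chitinase-like proteins belong to the same glycoside hydrolase family as the true chitinases and share their barrel fold, but they have lost the catalytic residues and bind sugars without cutting chitin. Chil3 (also called Ym1) and Chil4 (Ym2) are secreted lectins of rodents that form crystals in inflamed lungs and are widely used as markers of alternative activation by IL-4 and IL-13, which signal through the IL-4 receptor α chain and STAT6. Chil1 (BRP-39, the mouse counterpart of human YKL-40) is a secreted glycoprotein made by macrophages, neutrophils and epithelium, and the role of Chil5 is less well described.

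Chil3, Chil4 and Chil5 lie on the minus strand of chromosome 3 (GRCm38), Chil5 from 106016919 to 106032814, Chil3 from 106147554 to 106167564 and Chil4 from 106201490 to 106219507. Chil1 lies apart from them on the plus strand of chromosome 1 from 134182176 to 134190181. The 250 bases before the RefSeq start of Chil3, Chil4 and Chil5 (GRCm38.p6) are printed below because these were the 3 members with IL-4 values above their ACs in every library. Capitals mark matches to the letters TTCNNNGAA, the general form of a STAT motif, and to TATAAA, searched on both strands together with TTCNNNNGAA, the form with a longer spacer.
Chil3, chr3:106167565-106167814, minus strand: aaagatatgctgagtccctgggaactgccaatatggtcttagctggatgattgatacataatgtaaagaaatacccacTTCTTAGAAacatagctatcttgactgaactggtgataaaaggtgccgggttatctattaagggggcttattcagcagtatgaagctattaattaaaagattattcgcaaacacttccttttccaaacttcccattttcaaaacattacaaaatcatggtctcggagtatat
Chil4, chr3:106219480-106219729, minus strand: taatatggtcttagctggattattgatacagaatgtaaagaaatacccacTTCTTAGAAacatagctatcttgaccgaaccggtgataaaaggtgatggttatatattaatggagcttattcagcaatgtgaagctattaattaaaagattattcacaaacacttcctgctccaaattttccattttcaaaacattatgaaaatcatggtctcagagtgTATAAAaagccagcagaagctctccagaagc
Chil5, chr3:106032896-106033145, minus strand: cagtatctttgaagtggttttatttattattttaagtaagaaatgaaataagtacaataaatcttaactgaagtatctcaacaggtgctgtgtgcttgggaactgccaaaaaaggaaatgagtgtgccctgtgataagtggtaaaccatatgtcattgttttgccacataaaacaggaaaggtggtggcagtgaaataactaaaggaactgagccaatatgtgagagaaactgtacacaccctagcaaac

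Chil3 and Chil4 held the same 9 letters, TTCTTAGAA, which began 172 bases before the Chil3 start and 200 bases before the Chil4 start. TTCNNNGAA was found in 7.02% of 32851 mouse promoter windows of this length, TTCNNNNGAA in 5.85% and TATAAA in 12.37%. Chil4 also held TATAAA from 31 bases before its start. The 28 bases between the positions of TTCTTAGAA reflect where the starts were annotated, since the RefSeq start of Chil4 lies inside the gene as given above. In Chil3 the letters TATAAA ran from 3 bases before the start to base 3 after it, beyond the end of the printed window. The Chil5 window matched none of these letters and neither did that of Chil1. The window of Chil6, a further chitinase-like gene on chromosome 3, held TTCNNNGAA as TTCCAGGAA and as TTCTGTGAA, and also TATAAA. Chil6 was at a mean of 0.58 normalized counts with IL-4, too low to be tested. TTCNNNGAA was thus not particular to Chil3 and Chil4 among the genes searched. By global alignment, 80.4% of the 250 bases were identical between Chil3 and Chil4, or 91.6% with the Chil3 window moved by 28 bases, against 54.4% between Chil3 and Chil5 and 51.2% between Chil4 and Chil5. A match to these letters describes the sequence and does not show that a factor binds there.

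The libraries held between 779421 and 7782072 reads on genes, with a median of 4461121. Library 3 of each group of the IL-4 experiment was the shallowest, and in these 2 libraries a single read was worth 5.14 (IL-4 with ACs) and 5.36 (ACs) normalized counts. The eosinophil markers Siglecf and Ccr3 were present in every group, with mean normalized counts of 1630 to 3237 for Siglecf and 2974 to 4498 for Ccr3, while Epx, the eosinophil peroxidase, was nearly absent, at 0.46 to 14.1. Macrophage markers were also present. The sum of 10 of them ranged from 14412 to 17972 with ACs, 7399 to 8706 with E. coli, 18446 to 26412 with IFN-γ and 7753 to 8030 with both in the Type 1 experiment, and from 20034 to 29354 with ACs and 17134 to 27447 with IL-4. In bulk RNA, a change in the number of cells of one type and a change in the RNA of each cell cannot be told apart.

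Chil3 was by far the most abundant of the 4 genes. It made up 99.3% of the members' reads with IL-4 and between 99.5% and 99.9% in the other 5 groups, as means of 3 libraries. The counting protocol tags transcript 3′ ends, and these shares were not divided by transcript length. Among all genes, Chil3 ranked 5 by mean normalized count with IL-4 and 59 with ACs in the IL-4 experiment, and between 117 (IFN-γ) and 309 (E. coli) in the Type 1 experiment.

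IL-4 raised Chil3 by about 6-fold and Chil4 by about 34-fold over ACs alone, and Chil5 values were also higher in every library. With ACs in the IL-4 experiment, Chil3 was at 5825, 7175 and 9431 normalized counts in libraries 1, 2 and 3. With IL-4 and ACs it was at 40128, 34705 and 59274. All 3 libraries with IL-4 were well above all 3 with ACs, and the highest value of each group was in its shallow library 3. The group means were 7477 ± 1822 and 44702 ± 12907 (SD, n = 3 each), and Chil3 reads rose from 0.182% ± 0.0404 to 1.06% ± 0.264 of all reads on genes (SD, n = 3). On the scale of log2(normalized count + 1), which all fitted values here use, the difference was 2.57 (SE 0.22, adjusted p = 0.00043, limma over 10669 genes), a fold change of 5.94 with a 95% confidence interval of 4.22 to 8.35.

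Chil4 was close to the limit of detection without IL-4. With ACs it was at 9.78, 2.34 and 10.7 normalized counts in libraries 1, 2 and 3, which came from 13, 3 and 2 reads. With IL-4 and ACs it was at 217, 203 and 375 normalized counts, from 375, 386 and 73 reads. The lowest library with IL-4 was thus far above the highest with ACs. The means were 7.61 ± 4.59 and 265 ± 95.4 (SD, n = 3 each), and the log2 difference was 5.09 (SE 0.49, adjusted p = 0.00079, limma), a 34.1-fold change with a 95% confidence interval of 16.0 to 72.7. Because the baseline rested on 18 reads in all, the size of this change was less certain than its direction, and a pseudocount of 5 in place of 1 gave a log2 difference of 4.44.

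Chil5 was higher with IL-4 in each library but did not pass the test. With ACs it was at 9.02, 4.67 and 16.1 normalized counts (12, 6 and 3 reads), and with IL-4 and ACs at 79.4, 74.8 and 20.6 (137, 142 and 4 reads). The groups did not overlap, but library 3 with IL-4 lay close to library 3 with ACs, and those 2 values rested on 4 and 3 reads. The means were 9.92 ± 5.76 and 58.3 ± 32.7 (SD, n = 3 each), with a log2 difference of 2.36 (SE 0.62, adjusted p = 0.17, limma) and a 95% confidence interval for the fold change of 1.97 to 13.4. Without library 3 with IL-4 the log2 difference was 2.98 (adjusted p = 0.05 after rounding, limma, where 0.982% of genes passed), and without library 3 of both groups it was 3.37 (adjusted p = 0.00013, limma, where 6.17% passed), past the threshold in both cases. On whole reads recovered from the normalized values it was also past the threshold, at 3.13 (adjusted p = 0.0012, edgeR) and 2.96 (adjusted p = 8.1e-05, DESeq2), among 1.99% and 1.96% of the genes tested. The last bases of Chil5 overlap the antisense gene Gm42722, whose means were 8.48 ± 8.99 with ACs and 27.6 ± 2.87 with IL-4 (SD, n = 3 each). The sources used here do not say whether strand was used in counting, so reads of the overlap could belong to either gene.

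Chil1 showed no such pattern with IL-4. It was at 0.75, 3.89 and 32.2 normalized counts with ACs (1, 5 and 6 reads) and at 8.11, 5.8 and 0 with IL-4 (14, 11 and 0 reads). The highest of these values came from 6 reads in the shallow ACs library, the groups overlapped, and the gene was below the minimum mean of 10 normalized counts needed for the test. With all genes above 0 in the fit, its log2 difference was -0.73 (SE 1.25, adjusted p = 0.82, limma).

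Of the 4 members, 3 were tested with IL-4 and 2 of them, Chil3 and Chil4, passed the threshold of 1.5-fold at an adjusted p below 0.05. Over all genes tested, 1.09% passed, 0.74% upward and 0.347% downward. The 3 tested members each had groups that did not overlap, as did 17.3% of all genes. Chil4 and Chil5, with ACs means of 7.61 and 9.92, reached the minimum mean of 10 only through their values with IL-4. These counts of members therefore cannot be weighed against the shares of all genes. The calls of Chil3 and Chil4 held without either shallow library and without both (log2 differences of 2.53 for Chil3 and 5.14 for Chil4 in the latter). The summed macrophage markers given above overlapped between IL-4 and ACs, with means of 20938 and 24463, and of the 10 markers 1 passed the test, Vsig4, downward (-1.36, adjusted p = 0.031, limma). The sum of 9 neutrophil markers was 3882 to 4996 with ACs and 3845 to 4251 with IL-4, which overlapped, and 1 of 3 tested passed, Mmp8, downward (-2.27, adjusted p = 0.00065, limma). The sum of 4 mast cell markers, none of them tested, was 20.2 to 26.8 with ACs and 5.14 to 10.0 with IL-4. The sum of 9 eosinophil markers was higher with IL-4, at 14865 to 16108 against 9929 to 13037, and 2 of the 9 passed upward, the ribonuclease genes Ear2 (2.12) and Ear6 (0.91). Ear6 was the largest part of this sum, at a mean of 8328 with IL-4 and 4515 with ACs. Of the 9, 7 had a positive log2 difference, while Siglecf (2379 against 2625) and Ccr3 (3100 against 3440) were lower with IL-4. Over the last 400 transcript bases, 96 of 351 windows of 50 bases of Ear2 and 9 of Ear6 were shared exactly with another of the 6 other protein-coding genes of this family, so reads of these 2 genes could be split between copies or lost. The call of Ear2 was lost without IL-4 library 1 (2.18) or 3 (2.02), and that of Ear6 without IL-4 library 1 (0.93), 2 (0.88) or 3 (0.92) or ACs library 1 (0.94). The part of these marker lists in the Chil3 and Chil4 values was not tested.

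**Figure D1:**
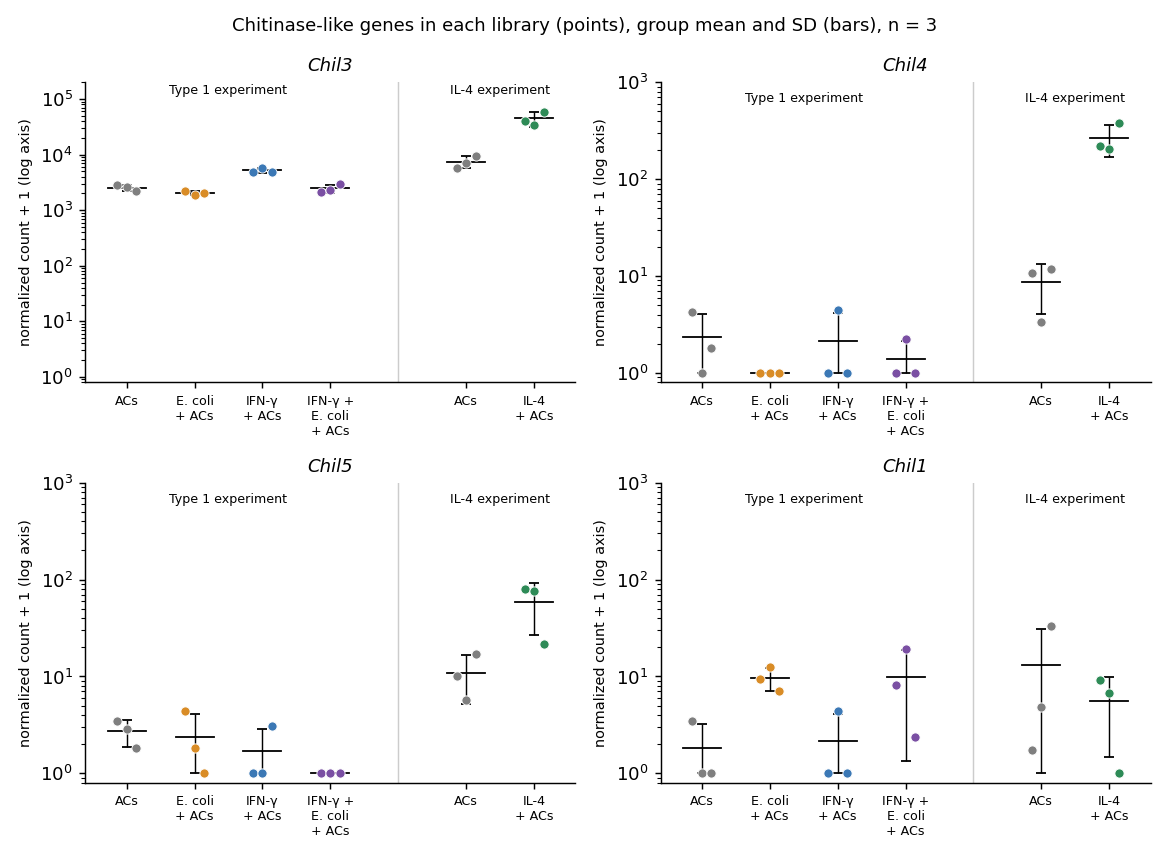
Normalized count + 1 on a log axis for Chil3, Chil4, Chil5 and Chil1 in each library (points), with the group mean and SD as bars cut at 0 counts (n = 3 per group), the Type 1 experiment left and the IL-4 experiment right of the line. Chil3 sits at 1885 or more in every library and at 34705 or more with IL-4, Chil4 and Chil5 leave the lowest counts mainly with IL-4, and Chil1 stays at or below 32.2 throughout.

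In the Type 1 experiment, Chil3 rose about 2-fold with IFN-γ and did not pass the test with E. coli. With ACs alone Chil3 was at 2852, 2579 and 2189 normalized counts, and with IFN-γ and ACs at 4898, 5794 and 4866. All 3 libraries with IFN-γ were above all 3 with ACs. The means were 2540 ± 333 and 5186 ± 527 (SD, n = 3 each), a log2 difference of 1.03 (SE 0.13, adjusted p = 6.9e-06, limma) and a fold change of 2.05 with a 95% confidence interval of 1.69 to 2.48. Chil3 was the 1 member tested in this experiment and it passed the threshold upward, where 11.4% of 10166 genes passed upward and 9.96% downward, and 42.9% had groups that did not overlap.

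With E. coli and ACs, Chil3 was at 2251, 1885 and 2015 normalized counts (2051 ± 185, SD, n = 3). These values overlapped those with ACs, since the lowest ACs library lay below the highest with E. coli. The log2 difference was -0.30 (SE 0.13, adjusted p = 0.14, limma), with a 95% confidence interval for the fold change of 0.669 to 0.980. E. coli moved 10.3% of genes past the threshold, and 38.3% had groups that did not overlap.

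When cells received IFN-γ and then E. coli, Chil3 overlapped ACs alone. The 3 libraries were at 2128, 2332 and 2922 normalized counts (2461 ± 412, SD, n = 3), against 2189 to 2852 with ACs and 4866 to 5794 with IFN-γ. They overlapped the ACs libraries and lay below every IFN-γ library, and 29.6% of genes likewise had no overlap between IFN-γ with E. coli and IFN-γ alone. Against ACs the log2 difference was -0.05 (SE 0.13, adjusted p = 0.79, limma), with a 95% confidence interval for the fold change of 0.798 to 1.17, in a comparison where 31.9% of genes passed and 48.8% did not overlap. Leaving out library 1 of ACs or of IFN-γ with E. coli gave small positive values instead, 0.04 and 0.05.

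The effect of IFN-γ on Chil3 thus differed with and without E. coli. The interaction was -0.78 on the log2 scale (SE 0.19, adjusted p = 0.014, limma), with a 95% confidence interval from -1.17 to -0.39. It passed the threshold downward, as did 4.28% of genes, while 7.44% passed in either direction. The call did not hold without ACs library 3 (-0.68, adjusted p = 0.053, limma) or without E. coli library 1 (-0.71, adjusted p = 0.054, limma). The macrophage marker sums given above were also lower with E. coli and with both stimuli than with ACs or IFN-γ. Of the 10 markers 6 passed the test downward with E. coli and 7 with both, where Adgre1, named after its value was seen, passed upward. With IFN-γ alone 2 passed upward and 1 downward. The sum of the 9 eosinophil markers was 5206 to 6031 with IFN-γ against 8209 to 8590 with ACs, lower where Chil3 was higher, and 4 of 7 tested passed downward. The neutrophil marker sum was 1535 to 1909 with both stimuli, below the 2109 to 2380 with ACs. Its largest part was Retnlg, at a mean of 923 with both stimuli and 1665 with ACs. Of 4 neutrophil markers tested there, Retnlg passed downward (-0.86, adjusted p = 5.3e-05, limma). Cxcr2 (1.93, adjusted p = 1e-05, limma) and Ly6g (2.01, adjusted p = 0.004, limma) passed upward. With IFN-γ alone the neutrophil sum was 2107 to 2557, with Ly6g passing upward (2.16, adjusted p = 0.0035, limma) and Mmp8 downward (-1.33, adjusted p = 1.4e-06, limma). The mast cell marker sum was 24.6 to 66.5 with IFN-γ and 29.9 to 61.1 with both against 4.70 to 18.7 with ACs, and Cpa3, the 1 of 4 tested, passed upward in each (2.75 and 3.03). The part of all these marker lists in the Chil3 values was not tested.

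Chil4 and Chil5 were at or near 0 throughout the Type 1 experiment. Chil4 had 9 reads in all over 12 libraries and 48866223 reads on genes. They were 4, 0 and 1 with ACs, 0, 3 and 0 with IFN-γ, 0, 1 and 0 with IFN-γ and E. coli, and none in the 3 E. coli libraries, which allows up to 0.202 reads per 1000000 reads there. Chil5 had 12 reads, which were 3, 2 and 1 with ACs, 4, 1 and 0 with E. coli, 0, 0 and 1 with IFN-γ, and none with both stimuli, which allows up to 0.287 reads per 1000000 reads. These intervals and limits cover counting error only. The Chil5 libraries with both stimuli, all at 0, lay below the 3 with ACs (2.44, 1.88 and 0.82 normalized counts), as groups did not overlap for 28.3% of the genes with any value above 0. With all these genes in the fit, the log2 difference of Chil5 was -1.39 (SE 0.56, unadjusted p = 0.023, adjusted p = 0.10, limma), which did not pass. In that fit neither Chil4 nor Chil5 passed the threshold with any of the Type 1 stimuli.

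Chil1 was the member whose low counts were higher with E. coli. With ACs it was at 2.44, 0 and 0 normalized counts (3, 0 and 0 reads), and with E. coli at 8.37, 11.5 and 6.16 (10, 14 and 7 reads). Every E. coli library was above every ACs library. Of the 21845 genes with any value above 0, 22.3% had groups that did not overlap, counting both directions. With IFN-γ it was at 0, 3.44 and 0 (0, 3 and 0 reads), and with both stimuli at 7.13, 18.3 and 1.38 (5, 15 and 1 reads). The libraries with IFN-γ overlapped those with ACs, and so did those with both stimuli, through the library that held 1 read. Chil1 was below the minimum mean for the test. With all genes above 0 in the fit its log2 difference was 2.64 with E. coli (SE 0.84, adjusted p = 0.081, limma) and 2.25 with both (SE 0.84, adjusted p = 0.074, limma), which did not pass. On recovered reads of the same genes, a test added after its values were seen, it passed with E. coli (3.20, adjusted p = 0.016, edgeR, where 6.38% of genes passed) and with both (3.24, adjusted p = 0.0075, edgeR, where 16.6% passed). The ACs group rested on 3 reads in 1 library, so the size of these differences is uncertain.

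The response to IL-4 was compared with the responses to IFN-γ, each against the ACs of its own experiment. For Chil3 the IL-4 effect exceeded the IFN-γ effect by 1.54 on the log2 scale (SE 0.26, adjusted p = 0.00023, limma over 10414 genes) and that of IFN-γ with E. coli by 2.62 (SE 0.26, adjusted p = 2.2e-07, limma). For Chil4 the differences were 5.36 (SE 1.20, adjusted p = 0.0037, limma) and 5.69 (SE 1.20, adjusted p = 0.0016, limma), whose sizes depend on the pseudocount because the Type 1 libraries were near 0. For Chil5 they were 3.21 (SE 1.24, adjusted p = 0.09, limma), not past the threshold, and 3.75 (SE 1.24, adjusted p = 0.035, limma), past it, with the same dependence. The latter call was lost without ACs library 1 or 2 of the Type 1 experiment (3.56 and 3.68), library 1 with both stimuli (3.75), or ACs library 1 or 2 of the IL-4 experiment (3.76 and 3.35), and the former was gained without library 3 with IL-4 (3.83). Against IFN-γ 2 of 3 tested members passed, where 14.3% of all genes did. Against IFN-γ with E. coli 3 of 3 passed, where 20.4% of all genes did. Chil4 and Chil5 reached the minimum mean of 10 normalized counts only through the libraries with IL-4. These counts of members therefore cannot be weighed against the shares of all genes. The 2 IFN-γ comparisons share their ACs libraries, and stimulus and experiment differ together in these contrasts.

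**Figure D2:**
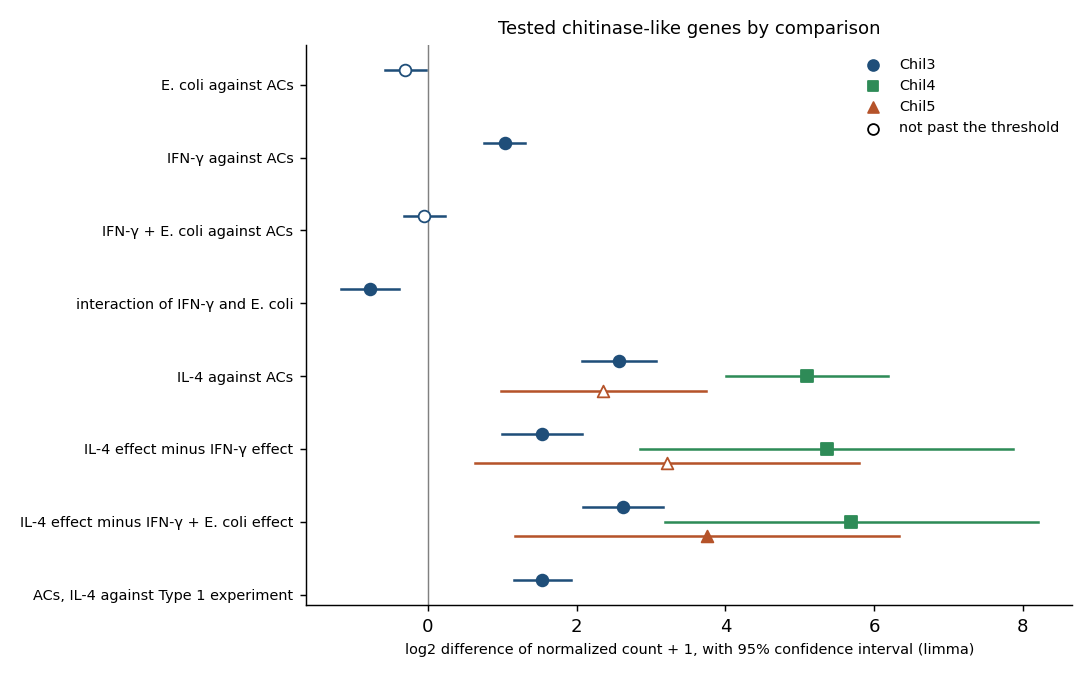
Log2 differences of normalized count + 1 with 95% confidence intervals (limma) for the tested members in each comparison, filled where the threshold was passed and open where it was not. Chil4 with IL-4 (5.09) lies to the right of Chil3 (2.57) and Chil5 (2.36), while Chil3 was past the threshold with IFN-γ (1.03) and in the interaction (-0.78) but not with E. coli (-0.30) or both stimuli (-0.05).

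The ACs groups of the 2 experiments differed in Chil3 as well. The 3 libraries of the IL-4 experiment, at 5825 to 9431 normalized counts, lay above the 3 of the Type 1 experiment, at 2189 to 2852. The log2 difference was 1.54 (SE 0.17, adjusted p = 0.00023, limma), a 2.90-fold change with a 95% confidence interval of 2.23 to 3.79, in a comparison where 19.2% of 10592 genes passed the threshold and 42.2% did not overlap. Marker sums differed there too, with no overlap between the groups. They were higher in the IL-4 experiment for macrophages (20034 to 29354 against 14412 to 17972), neutrophils (3882 to 4996 against 2109 to 2380), eosinophils (9929 to 13037 against 8209 to 8590) and mast cells (20.2 to 26.8 against 4.70 to 18.7), and lower for thymocytes (43.6 to 71.6 against 82.1 to 122) and B cells (medians of 14.8 against 46.0). Their part in the Chil3 difference was not tested. Both groups carry the same treatment, so the experiment and any difference in cells or handling cannot be told apart. In the order of mean Chil3 levels, IL-4 (44702) came first, then ACs of the IL-4 experiment (7477), IFN-γ (5186), ACs of the Type 1 experiment (2540), IFN-γ with E. coli (2461) and E. coli (2051). The ranges of the last 3 neighbours overlapped, and those of the first 4 did not.

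Chil3 and Chil4 are close copies, which bears on how their reads could be told apart. Their transcripts were identical at 94.4% of aligned bases over the whole length and at 90.0% over the last 400 bases, where 3′ tags fall. No 50-base window of those 400 bases was shared exactly, and the closest pair of windows differed at 3 bases, while the longest exact run was 35 bases. The study states that reads with 1 place in the genome were counted. The read length was not given in the sources used here, and whether Chil3 reads with errors were counted for Chil4 was not tested. The share of Chil4 was 5.41 to 6.33 reads per 1000 Chil3 reads in the 3 libraries with IL-4 (mean 5.87 ± 0.458, SD, n = 3) and 0.326 to 1.68 in the 3 with ACs (1.05 ± 0.680), with no overlap, and 0 in the E. coli libraries despite 7286 Chil3 reads. Chil5 was at 1.49 ± 0.997 reads per 1000 Chil3 reads with IL-4 and 1.30 ± 0.569 with ACs (SD, n = 3 each), which overlapped.

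**Figure D3:**
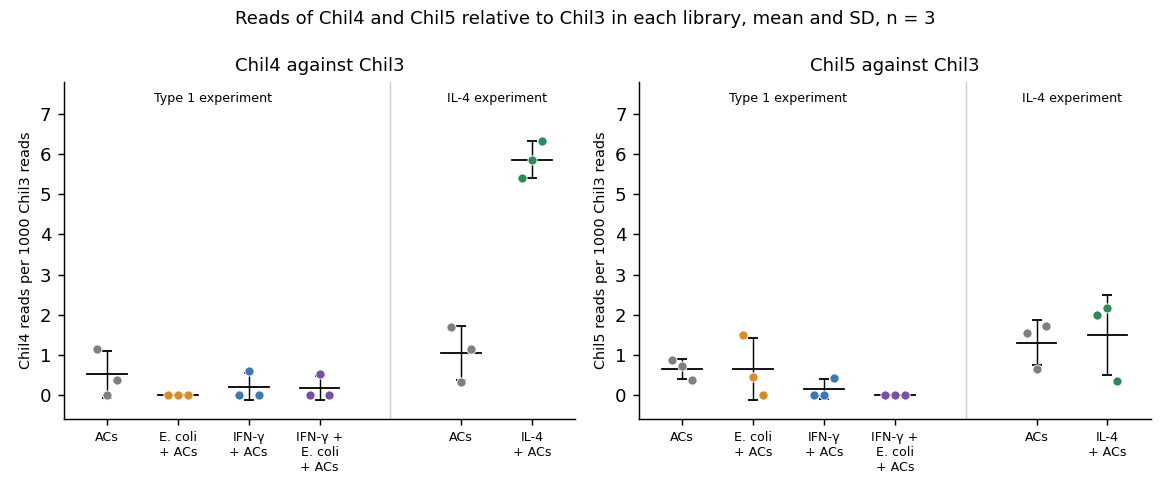
Reads of Chil4 (left) and Chil5 (right) per 1000 Chil3 reads in each library (points), with the mean and SD of 3 libraries as bars. The Chil4 share lies between 5.41 and 6.33 with IL-4 and at or below 1.68 elsewhere, whereas the Chil5 share with IL-4 overlaps that with ACs.

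No tested gene of the wider chitinase family passed the threshold with IL-4. Of 6 genes on this list, Chid1, Ctbs and Ovgp1 were tested and none passed in either direction, where 1.09% of all genes passed. Their median log2 difference was -0.91, against -0.01 over all genes tested. Chia1, the acidic mammalian chitinase, whose gene lies between Chil5 and Chil3, had no read in any library, which allows up to 0.192 reads per 1000000 reads with IL-4. Chit1, the macrophage chitotriosidase, was at 4.01 ± 5.50 with IL-4 and at 0.50 ± 0.866 with ACs, and Chil6, a further chitinase-like gene of the cluster, at 0.58 ± 1.00 and 0.26 ± 0.450 (SD, n = 3 each), all below the filter. The lysosomal enzyme Ctbs was at 36.4 ± 15.3 with IL-4 and 67.1 ± 21.0 with ACs (log2 difference -0.91, adjusted p = 0.49, limma). Its groups did not overlap there, as for 17.3% of all genes tested with IL-4. Ctbs fell with IFN-γ (-0.96, adjusted p = 0.018, limma). Ovgp1, an oviduct glycoprotein related to chitinases, fell with IFN-γ and E. coli (-2.75, adjusted p = 0.026, limma) from a mean of 22.8, and Chid1 passed in none of the 4 comparisons with ACs.

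Around the cluster on chromosome 3, the called genes with IL-4 were Chil3 and Chil4. In the stretch from Adora3 to Dram2, 16 genes were annotated as protein-coding or antisense, of which 13 were tested with IL-4, and the 10 that were not members did not pass. Nearest in size to the members was Gm42722 (2.39, adjusted p = 0.48, limma). With IFN-γ, Chil3 passed upward together with Cept1, an enzyme of phospholipid synthesis (1.14, adjusted p = 2.9e-06, limma), and Tmigd3 passed downward (-1.78, adjusted p = 5.3e-07, limma), at distances of 380 and 297 kb from the Chil3 start.

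**Figure D4:**
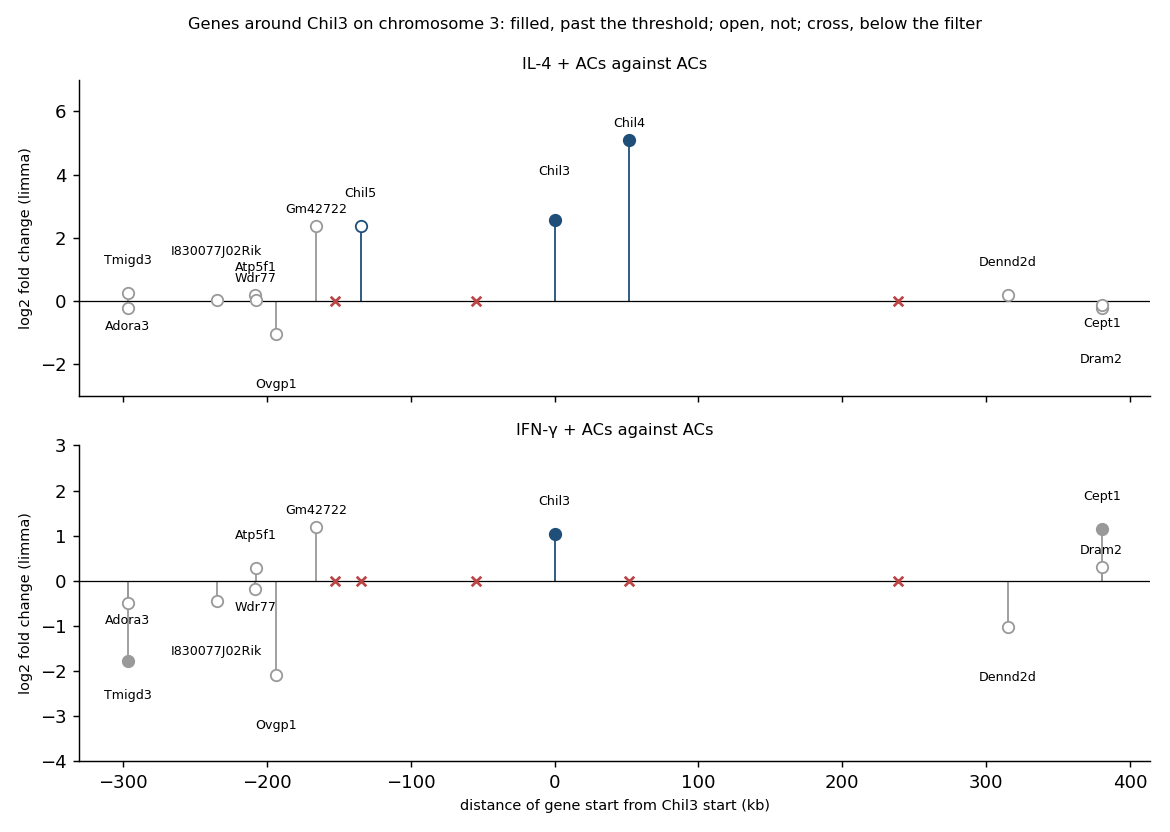
Log2 fold change (limma) of genes around Chil3 against the distance of their start from the Chil3 start in kb, with IL-4 above and IFN-γ below, filled where the threshold was passed, open where it was not, and crosses for genes below the filter (Pifo, Chia1 and Chil6, and with IFN-γ also Chil5 and Chil4). With IL-4 the filled points are Chil3 (2.57) and Chil4 (5.09), and with IFN-γ they are Chil3 (1.03), Cept1 (1.14) and Tmigd3 (-1.78).

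Genes of the IL-4 pathway gave a background for these values. Il4ra, the receptor chain shared by IL-4 and IL-13, was at 404.6 to 471.7 in all 6 groups and passed in none of the 4 comparisons with ACs. Stat6, the transcription factor downstream of it, was at 589 ± 47.0 with IL-4 and 808 ± 71.3 with ACs (log2 difference -0.45, adjusted p = 0.28, limma). Of 11 genes of IL-4 signalling, all tested, 1 rose with IL-4, the feedback inhibitor Cish (1.03, adjusted p = 0.0063, limma). Socs1, an inhibitor of cytokine receptor kinases, rose with IFN-γ (1.48, adjusted p = 5.7e-05, limma) and with IFN-γ and E. coli (1.45, adjusted p = 4.4e-05, limma), in the first of which Chil3 rose as well and in the second of which Chil3 did not pass.

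Among 12 genes of alternative activation, 10 were tested with IL-4 and 6 rose alongside Chil3 and Chil4, among them Clec10a, Mrc1, Pdcd1lg2 and Ccl24, with a list median of 1.75 against -0.01 over all genes. Pdcd1lg2, a ligand of PD-1, rose by 4.79 on the log2 scale (adjusted p = 0.02, limma), which was closest to the change of Chil4, and the lectin Clec10a rose by 2.44 (adjusted p = 2e-04, limma), which was close to that of Chil3. With IFN-γ alone, where Chil3 rose, 3 of 9 tested genes of this list rose and 2 fell, where 11.4% of all genes passed upward and 9.96% downward. With IFN-γ and E. coli, where Chil3 did not pass, 3 of 9 tested genes of this list fell (Clec10a, Mrc1 and Retnla) and none rose, where 17.2% of all genes passed downward and 14.7% upward. Of 10 interferon and LPS response genes, 9 rose in that comparison, among them Nos2 (6.16) and Cxcl9 (6.41). Of 6 receptors described for chitinase-like proteins or linked to them, 4 were tested with IL-4 and none passed.

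The gene whose changes were most like those of Chil3 was Rnase2a, an eosinophil-associated ribonuclease, none of whose 351 windows of 50 bases over the last 400 was shared exactly with the 6 other protein-coding genes of its family. Likeness was measured as the root mean square (RMS) difference over the 4 log2 fold changes against ACs, among 6357 genes with a mean of at least 50 in both experiments. The Type 1 changes share their ACs libraries. Rnase2a was at an RMS of 0.37 and followed with -0.21 for E. coli, 1.06 for IFN-γ, -0.77 for both and 2.75 for IL-4. It rose from 191 ± 9.50 to 1315 ± 351 normalized counts with IL-4 (SD, n = 3 each). The eosinophil-attracting chemokine Ccl24 (RMS 0.46) and the monocyte-attracting chemokines Ccl7 (0.47) and Ccl2 (0.59) came next, each past the threshold with IL-4 (1.84, 2.71 and 1.83), and then Fam13b (0.79), which did not pass with IL-4 (1.62, adjusted p = 0.52, limma). Of these 5 genes, Rnase2a and Ccl2 also passed with IFN-γ. The 5 genes were chosen by these same changes, so their calls are no separate support for the likeness.

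**Figure D5:**
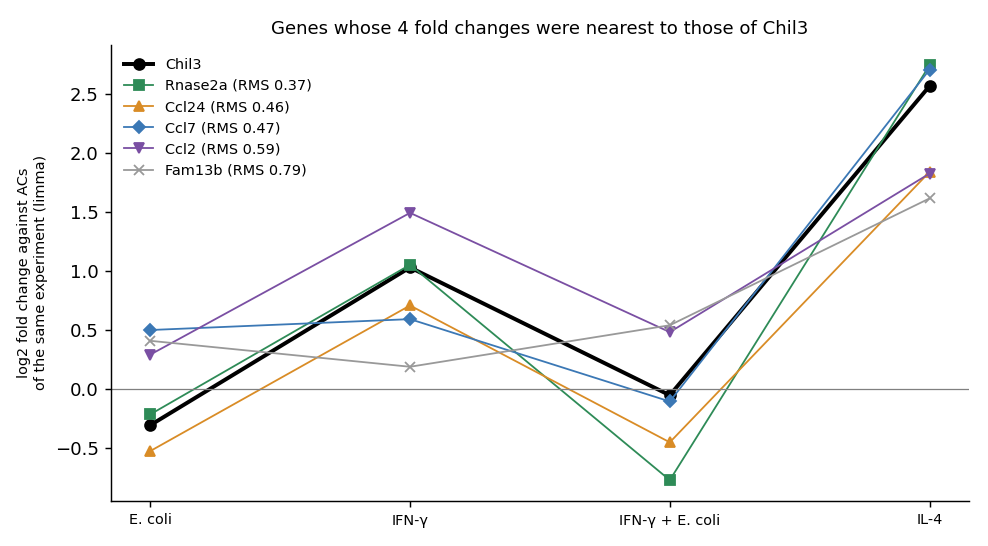
Log2 fold change against the ACs of the same experiment (limma) for Chil3 (black) and the 5 genes with the smallest RMS difference from it, by stimulus. Chil3 goes from -0.30 with E. coli to 1.03 with IFN-γ, -0.05 with both and 2.57 with IL-4, and Rnase2a follows at -0.21, 1.06, -0.77 and 2.75.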

How the data were processed

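RNA was prepared by the CEL-Seq2 protocol, which tags transcript 3′ ends. Per the labels' processing notes, reads were trimmed with cutadapt 1.10, aligned to GRCm38 with TopHat2 2.1.0, counted with HTSeq 0.6.1 and normalized with DESeq2 1.26.0. The study's methods also name STAR, and which run made the table is not given in the sources used here. The deposited values are a signal, namely gene counts that the authors divided by 1 size factor per library. Whole reads were recovered in 100% of values of every library (within 0.01 normalized counts). Of 54446 identifiers 54409 matched a gene symbol of GENCODE M21.

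Normalized counts were tested on the log2(value + 1) scale with limma 3.58.1 (trend, two-sided) in R 4.3.3, over genes whose mean in the fitted libraries was 10 or more, with Benjamini-Hochberg adjustment over all of them and a threshold of adjusted p below 0.05 and at least 1.5-fold. The 12 Type 1 libraries, the 6 IL-4 libraries, the 6 ACs libraries and all 18 libraries (for differences between effects) were fitted separately. Recovered reads were tested with edgeR 4.0.16 and DESeq2 1.42.0 as alternatives. The fits were checked on simulated data. Positions are from GENCODE M21, promoter sequences from RefSeq (GRCm38.p6). Named genes were the members, the chitinase family, Il4ra, Stat6, Socs1, list genes past the threshold with IL-4 or with IFN-γ and E. coli, the 5 genes most like a tested member, and neighbours on the chromosome. Members and gene lists were chosen with earlier results of these data known. Markers of other cell types named beside a result were named after their values were seen. The study calls its replicates biological and ties eosinophils cultured with ACs to different mice, while the labels do not say whether groups share mice, so p-values measure the spread between these libraries.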

Additional observations from a re-analysis of the deposited data

Results flagged for a closer look

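The effect of IFN-γ on Chil3 differed between cells with and without E. coli by -0.78 on the log2 scale (SE 0.19, adjusted p = 0.014, limma), a difference between conditions that was tested as an interaction. Chil3 was higher with IFN-γ in 3 of 3 libraries when E. coli was absent (5186 ± 527 against 2540 ± 333, SD, n = 3 each), and with E. coli present the groups with IFN-γ (2461 ± 412) and without it (2051 ± 185) overlapped. The adjusted p over the alternatives tried ran from 0.0013 to 0.086 (limma, edgeR and DESeq2), and the call was lost in a fit of all 18 libraries and without ACs library 3 (-0.68) or E. coli library 1 (-0.71).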

How the results depend on the processing

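Chil3 and Chil4 kept their direction and their side of the threshold under every alternative that tested them in the IL-4, IFN-γ and E. coli comparisons, in the differences between effects and between the ACs groups. The exceptions concern Chil3 in the Type 1 experiment. With IFN-γ and E. coli its log2 difference ran from -0.18 to 0.048 with 1 library left out. Its interaction ran from -0.91 to -0.68 with 1 library left out, and in a fit of all 18 libraries it was -0.78 and not past the threshold (adjusted p = 0.086, limma). Chil5 with IL-4 passed with all genes above 0 (2.36), array weights (3.03), edgeR (3.13, and 3.15 over all genes, an alternative chosen after seeing the data), DESeq2 (2.96) and without replicate 3 in both groups (3.37), and with 1 library left out it ran from 1.96 to 2.98. Its IL-4 effect minus that of IFN-γ passed with a pseudocount of 5 (2.22), array weights (4.15), edgeR (4.63, and 4.67 over all genes), DESeq2 (4.60) and without replicate 3 in both groups (4.23), with a range of 2.81 to 3.83 when 1 library was left out. Minus that of IFN-γ with E. coli, it lost the threshold with all genes above 0 (3.75) and with the replicate block (3.75), with a range of 3.35 to 4.37. The 116 genes past the threshold with IL-4 became 208 with all genes, 745 with array weights, 212 with edgeR, 386 with edgeR over all genes, 209 with DESeq2, 221 with all 18 libraries in one fit and 656 without replicate 3 in both groups, and ran from 47 to 130 with 1 library left out (47 and 57 without IL-4 library 1 or 2, 62 and 61 without ACs library 1 or 2). The interaction count of 756 became 495 with all 18 libraries and ran from 400 to 1026 (439 without ACs library 3, 400 without E. coli library 1, 486 without IFN-γ library 2), the 1486 genes of IL-4 minus IFN-γ became 2423 with array weights, and the 2038 genes between ACs groups ran from 1264 (without Type 1 ACs library 3) to 2734. Some small, uncalled values changed sign. Scaling to a common upper quartile gave -0.10 for Il4ra with IFN-γ and E. coli and -0.0029 for Chid1 with IL-4. With 1 library left out, Chid1 ran from -0.023 to 0.36 with E. coli, -0.10 to 0.28 with IFN-γ and -0.22 to 0.24 with IL-4, Stat6 from -0.082 to 0.0041 with E. coli, Fam13b from -0.067 to 0.55 with IFN-γ, and Il4ra from -0.078 to 0.16 and Ccl7 from -0.22 to 0.091 with IFN-γ and E. coli. The upper-quartile scaling moved the median of all genes from -0.05 to -0.18 in the latter comparison, where Chil3 went to -0.19. The main fits used no pairing by replicate number. Same-numbered residuals correlated at 0.0054 (Type 1) and 0.0095 (IL-4) on average, which cannot show whether groups share mice. With the replicate block 74 genes passed with IL-4 and no call of Chil3 or Chil4 changed. The cause of these changes was not tested. Depth limits Chil1, Chil4 and Chil5, whose Type 1 values rest on at most 15 reads in any library, and a single read in library 3 of either IL-4 group is worth over 5 normalized counts.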
